A study of Homo sapiens with 8 samples.

Results

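The Notch pathway is represented here by 10 genes chosen by name: the receptors NOTCH1, NOTCH2 and NOTCH3, the ligands JAG1 and JAG2, the transcriptional targets HES1, HES4, HEY1 and NRARP, and the glycosyltransferase LFNG. All 10 were found among the 24630 genes of the count tables. They were followed in PC9R, a gefitinib-resistant line obtained from PC9 by 1 to 2 weeks of gefitinib, and in PC9, its drug-sensitive parent, a human lung adenocarcinoma line dependent on mutant EGFR. Cells were at passage 8 to 12 and were grown in DMEM. Each line had 2 RNA-seq libraries, 1 library of DNase hypersensitive sites (DHS, which mark open chromatin) and 1 ChIP-seq library of H3K4me2, a histone mark of promoters and enhancers. Gefitinib appears only on the PC9R side, so the drug and the line cannot be told apart, and the labels do not say whether PC9R is a clone or a pool. On GRCh37, NOTCH1 lies at chr9:139388885-139440500, NOTCH2 at chr1:120454176-120643366, NOTCH3 at chr19:15269849-15311806, JAG1 at chr20:10618332-10654647, JAG2 at chr14:105607319-105635161, HES4 at chr1:934342-935552, HEY1 at chr8:80674606-80680092 and NRARP at chr9:140194083-140196723, all on the minus strand. HES1 at chr3:193853937-193856521 and LFNG at chr7:2552163-2568811 are on the plus strand.

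Notch receptors are activated when a ligand on a neighbouring cell pulls on them. ADAM proteases and then gamma-secretase cleave the receptor, and the freed intracellular domain enters the nucleus, binds the DNA-binding protein RBPJ and switches on genes of the HES and HEY families, which encode transcriptional repressors. Fringe enzymes such as LFNG add sugars to the receptor and change which ligands it answers, and NRARP is a target that feeds back on the receptor's intracellular domain. In the lung, the pathway is known for directing airway cells to secretory rather than ciliated or neuroendocrine fates.

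The first library of PC9R held 32502455 counts and the second 16715426, and those of PC9 held 32515891 and 16013058. The first and second libraries differed along GC content in both lines. With genes in 4 equal bins of transcript GC content, the median log2 difference of second minus first library was -1.01 in PC9R and -1.05 in PC9 in the highest bin, and 0.77 in PC9R and 0.94 in PC9 in the lowest. Library number therefore also entered a second fit as a batch term, although no label describes a batch. NOTCH1, NOTCH3, JAG2, HES4 and NRARP lie in the highest bin. Of the epithelial markers EPCAM, CDH1, KRT7, KRT8, KRT18 and KRT19, all 6 were tested and their levels summed to between 10760 and 18810 CPM (counts scaled to library size) in PC9R and between 10550 and 24190 CPM in PC9. Leukocyte markers summed to 13.7 to 17.6 CPM in PC9R and 8.68 to 8.75 CPM in PC9, nearly all from CD68, which was higher in PC9R with the batch term (1.80-fold, edgeR adjusted p = 0.0431). Endothelial markers summed to 20.2 to 46.9 CPM in PC9R and 12.7 to 22.4 CPM in PC9, with TIE1 at 0 counts throughout and CDH5 higher in PC9R with the batch term (1.88-fold, edgeR adjusted p = 0.0371). Fibroblast markers summed to 14.2 to 65.2 CPM in PC9R and 6.34 to 24.4 CPM in PC9, with DCN at 0 counts throughout and COL1A1 higher in that fit (2.48-fold, edgeR adjusted p = 0.00642). The epithelial CDH1 was higher in it as well (1.57-fold, edgeR adjusted p = 0.0474). None of these 4 passed without the batch term. The part of these markers in the values below was not tested. EGFR, the target of gefitinib, was at 531 and 1022 CPM in PC9R and 1868 and 2052 CPM in PC9 (log2 fold change -1.34, edgeR adjusted p = 0.538; with the batch term -1.41, edgeR adjusted p = 0.00448).

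No Notch gene passed the test between the lines. Of the 10 genes, 8 had enough counts to be tested, and 0 of these 8 were called by edgeR's quasi-likelihood test at an adjusted p under 0.05, against 0.253% of the 12660 genes tested (0.19% higher and 0.0632% lower in PC9R). None had an unadjusted p under 0.05, and DESeq2 and limma-voom called 0 as well. A fit with library number as a batch term called 0 of the 8, against 20.8% of all genes (11.2% higher and 9.57% lower), while 3 (NOTCH2, JAG1 and NRARP) had an unadjusted p under 0.05. The median log2 fold change of the 8 was 0.005 without and 0.018 with the batch term, and over all genes it was -0.01 in both fits. Intervals without a batch term were wide, reaching from -1.97 for NOTCH1 to 2.06 for JAG2 on the log2 scale, so this fit does not show that the genes were alike in the lines.

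**Figure D1:**
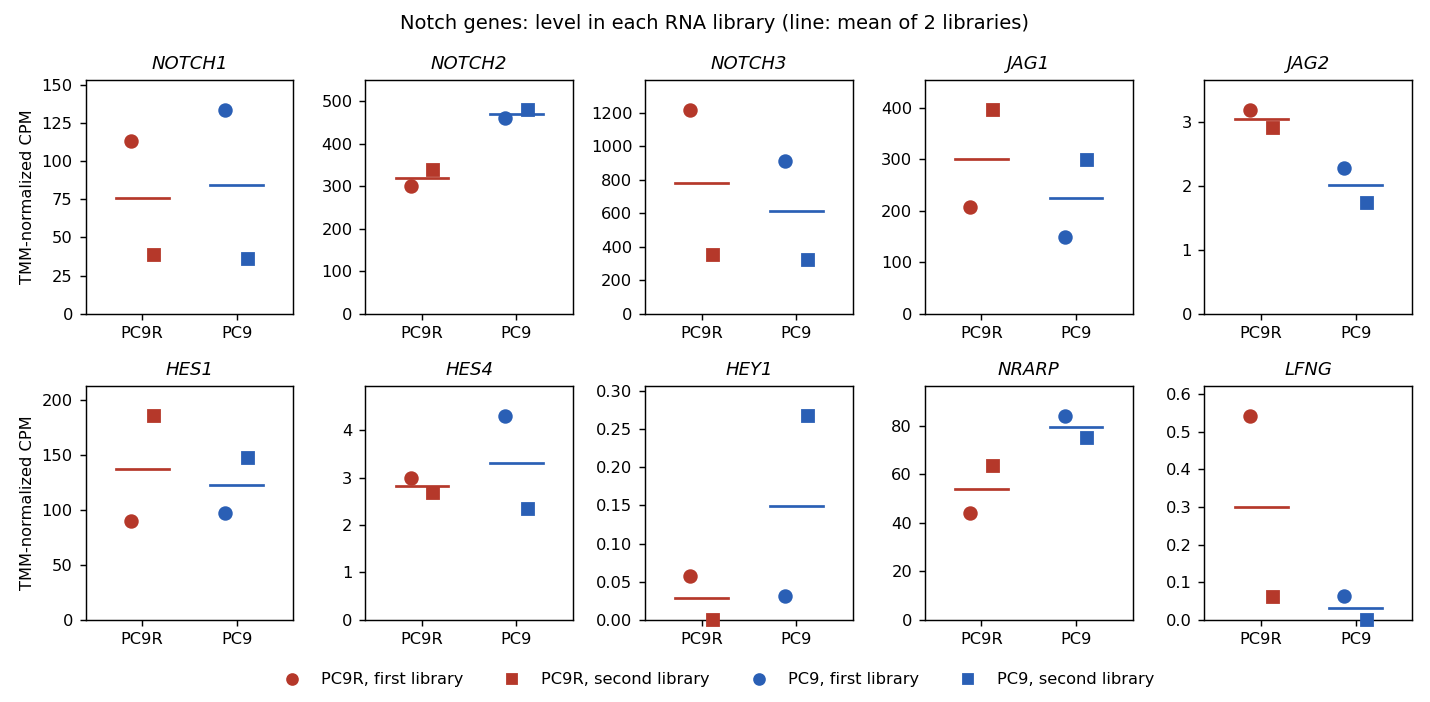
TMM-normalized levels in CPM (vertical axes, each from 0) of the 10 Notch genes in the RNA libraries of PC9R (red) and PC9 (blue). Circles are first and squares second libraries, and lines are means of 2 libraries. NOTCH2 and NRARP are lower and JAG2 higher in both PC9R libraries, and NOTCH1 and NOTCH3 differ more between first and second libraries than between lines.

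Receptors were expressed in both lines, with NOTCH3 and NOTCH2 above NOTCH1 per kb of transcript. NOTCH3, a receptor best known from vascular smooth muscle and pericytes, had 1215 and 351 CPM in the first and second libraries of PC9R and 911 and 319 CPM in those of PC9. It was higher in PC9R within each batch, but the libraries of the lines overlapped (log2 fold change 0.35, SE 0.73, edgeR adjusted p = 0.999). The batch term gave 0.28 (95% interval -0.13 to 0.69, edgeR adjusted p = 0.307).

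NOTCH2, a receptor with broad epithelial expression, had 299.8 and 339 CPM in PC9R against 460 and 478 CPM in PC9. Both PC9R libraries lay below both PC9 libraries, and the gap was of like size in the batches, at -0.62 between first and -0.50 between second libraries. The log2 fold change was -0.55 (SE 0.48, edgeR adjusted p = 0.999). The fit with a batch term gave -0.56 (95% interval -0.97 to -0.15), a PC9R level 0.68 times that of PC9, and edgeR's adjusted p of 0.0589 was the lowest of the 8 genes yet did not pass. Nearly all NOTCH2 counts came from 1 of its 2 accessions (38016 of 38052). Reads of NOTCH2 may be shared with its NOTCH2NL copies, so its level is uncertain. The 8 other tested genes within 2.5 Mb of the NOTCH2 start had a median log2 fold change of -0.66.

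NOTCH1, the best studied receptor of the family, had 113 and 38.7 CPM in PC9R and 134 and 35.8 CPM in PC9. The lines overlapped and the sign differed, at -0.24 between first and 0.11 between second libraries. The log2 fold change was -0.16 (SE 0.79, edgeR adjusted p = 0.999), and the batch-term fit gave -0.07 (95% interval -0.54 to 0.41, edgeR adjusted p = 0.839). Per kb of transcript, NOTCH3 held 78.6% and 54.6% of the summed receptor level in the first and second libraries of PC9R, and 65.9% and 44.7% in those of PC9. NOTCH2 held 14.7% and 39.98% in PC9R and 25.3% and 50.8% in PC9. In each batch the NOTCH3 share was thus higher and the NOTCH2 share lower in PC9R, while both shares differed more between batches than between lines. As the level of NOTCH2 is uncertain, so are the sizes of these shares.

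Neither ligand passed. JAG1 had 206 and 395 CPM in PC9R and 149.5 and 299 CPM in PC9. Its libraries overlapped between lines with the second libraries higher in both, while the differences within batches were close, at 0.47 and 0.40. The log2 fold change was 0.42 (SE 0.60, edgeR adjusted p = 0.999), and 0.43 in the batch-term fit (95% interval 0.02 to 0.85, edgeR adjusted p = 0.123). JAG2 had 3.19 and 2.91 CPM in PC9R against 2.29 and 1.74 CPM in PC9, from 161 counts over the PC9R libraries and 99 over those of PC9. The PC9R libraries lay above those of PC9, at a log2 fold change of 0.60 (edgeR adjusted p = 0.999), or 0.59 in the batch-term fit (95% interval -0.14 to 1.33, edgeR adjusted p = 0.223). Only 1 of the 2 JAG2 accessions had counts. The 32 other tested genes within 2.5 Mb of JAG2 had a median log2 fold change of 0.72.

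The targets differed in sign and none passed. HES1, the repressor gene most often used as a readout of Notch activity, had 89.7 and 185 CPM in PC9R and 97.7 and 147 CPM in PC9. Its libraries overlapped, and the sign differed, at -0.12 between first and 0.33 between second libraries. HES1 was at 0.17 without a batch term (SE 0.59, edgeR adjusted p = 0.999), against 0.10 in the batch-term fit (95% interval -0.37 to 0.57, edgeR adjusted p = 0.752). As fold changes, the 95% intervals were 0.44 to 2.88 without and 0.78 to 1.49 with the batch term, so a change in either direction remains possible. The 19 other tested genes within 2.5 Mb of HES1 had a median log2 fold change of -0.73. Such medians were 0.14 around NOTCH1 and NRARP, -0.18 around NOTCH3, 0.02 around JAG1 and -0.14 around HES4. The part of the surrounding region in the values of the Notch genes was not tested. NRARP, the feedback regulator, had 44.2 and 63.3 CPM in PC9R against 83.8 and 74.7 CPM in PC9. Both PC9R libraries were lower, by more in the first than in the second libraries (-0.92 and -0.24). NRARP was at -0.56 without a batch term (SE 0.55, edgeR adjusted p = 0.999), against -0.58 in the batch-term fit (95% interval -1.12 to -0.05, edgeR adjusted p = 0.113). HES4, a relative of HES1 that mice lack, had 2.99 and 2.68 CPM in PC9R and 4.30 and 2.34 CPM in PC9. Its lines overlapped, at a log2 fold change of -0.23 (edgeR adjusted p = 0.999), or -0.21 in the batch-term fit (95% interval -0.97 to 0.54, edgeR adjusted p = 0.686). Its 2 accessions gave opposite signs when fitted singly, at -0.43 and 0.22.

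**Figure D2:**
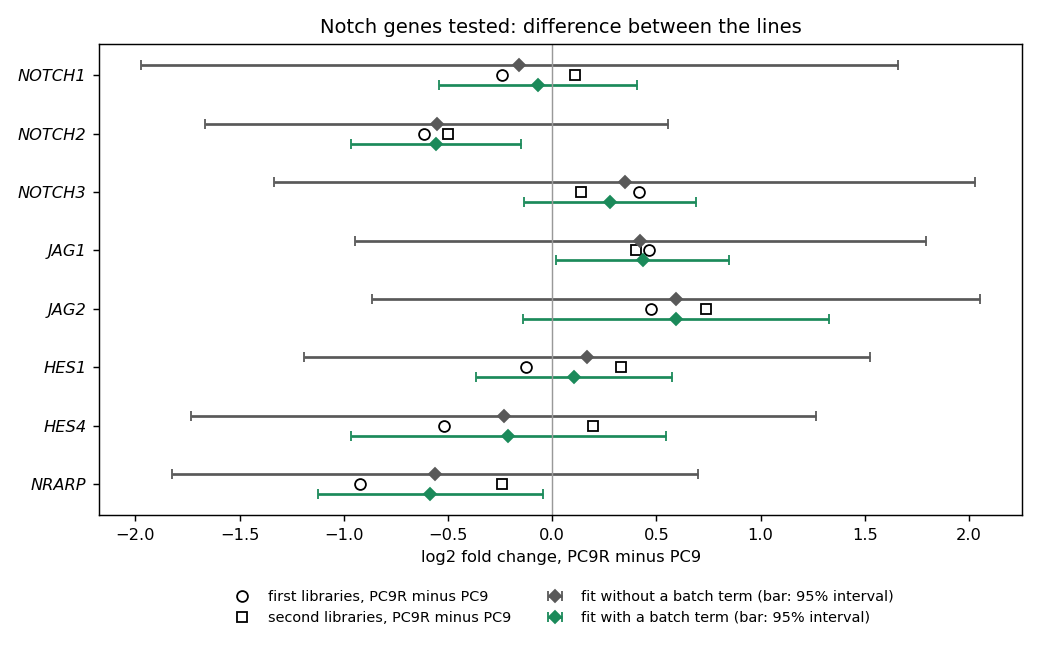
Log2 fold change of PC9R minus PC9 (horizontal axis) for the 8 Notch genes tested, from the fit without (grey) and with (green) a batch term, with 95% intervals. Open symbols are the differences within first (circles) and second (squares) libraries. NOTCH2 and NRARP lie below 0 and JAG1, JAG2 and NOTCH3 above 0 in both batches, and intervals without a batch term all include 0.

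HEY1 and LFNG had too few counts for a test. HEY1, a target best known from vessels and heart, had 2 counts over both PC9R libraries and 5 over both PC9 libraries, a ratio of 0.394 (95% exact counting interval 0.0376 to 2.41). LFNG, the lunatic fringe enzyme gene, had 19 and 1 counts in the PC9R libraries and 2 and 0 in those of PC9, a ratio of 9.86 over the summed counts (95% interval 2.39 to 87.0), of which 19 of the 20 PC9R counts came from the first library. HEY1 has 3 accessions and LFNG 4. Genes with several accessions held at most 7.07% of the counts of any library although 8198 of the 24630 genes have more than 1, so a low value of HEY1, LFNG, JAG2 or HES4 cannot be read as low expression. NOTCH2 has more than 1 as well, so its level beside NOTCH1 and NOTCH3, which have 1 each, is uncertain.

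Of the 8 tested genes, 3 had libraries of the lines that did not overlap, or 37.5% against 31.8% of all genes tested. JAG2 alone of these was higher, against 16.9% of all genes, and NOTCH2 and NRARP were lower, against 14.9%. The same sign in both batches was seen for 5 of the 8, or 62.5% against 73.9% of all genes. Among the 6 genes with ample counts, mean levels per kb of transcript in PC9R ran in the order NOTCH3 (90.2 CPM per kb), HES1 (87.3), JAG1 (50.6), NOTCH2 (27.9), NRARP (20.3) and NOTCH1 (7.94). In PC9 the order was HES1 (77.7 CPM per kb), NOTCH3 (70.9), NOTCH2 (41.1), JAG1 (37.7), NRARP (30.0) and NOTCH1 (8.85). The place of NOTCH2 in both orders is uncertain, as its level is. Many neighbours in these orders cannot be separated. In PC9R the library ranges of NOTCH3, HES1 and JAG1 overlapped one another, and NOTCH3 was below JAG1 in the second library, at 40.5 against 66.5 CPM per kb. In PC9 the range of NOTCH3 overlapped those of HES1, NOTCH2 and JAG1, and NOTCH3 was below all 3 in the second library. JAG1 also overlapped NOTCH2 and NRARP there. NOTCH1 lay below the other 5 in every library. In these bulk libraries fewer expressing cells and less RNA per cell cannot be told apart.

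Upstream sequences are shown for the targets because RBPJ, the DNA-binding partner of Notch, recognises the motif GTGGGAA. Of the 9 genes with an entry in RefSeq's promoter table, HES1 and HES4 hold the motif on either strand within 250 bases before to 50 bases after the start, and 6.25% of the 35116 promoters in the table do. The 250 bases before the RefSeq start are given 5′ to 3′ on the strand of the gene, with every match to GTGGGAA or its complement TTCCCAC in capitals. They were placed by exact match to GRCh37, at chr3:193853687-193853936 (plus strand) for HES1, chr1:935478-935727 (minus) for HES4 and chr9:140196724-140196973 (minus) for NRARP, which holds no match in this window. HES5 (chr1:2461703-2461952, minus) and HEYL (chr1:40105316-40105565, minus), relatives of HES1, are set beside them as examples that hold the motif and that the batch-term fit called lower and higher in PC9R; neither passed in edgeR without that term. HES2 and HES7, also called higher and lower in that fit, hold no match in this window, and HEY2, which was not called, holds 2.
HES1: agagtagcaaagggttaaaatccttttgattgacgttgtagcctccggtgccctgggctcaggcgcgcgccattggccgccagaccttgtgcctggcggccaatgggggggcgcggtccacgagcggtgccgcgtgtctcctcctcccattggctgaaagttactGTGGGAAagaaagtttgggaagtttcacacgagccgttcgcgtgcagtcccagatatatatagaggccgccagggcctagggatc
HES4: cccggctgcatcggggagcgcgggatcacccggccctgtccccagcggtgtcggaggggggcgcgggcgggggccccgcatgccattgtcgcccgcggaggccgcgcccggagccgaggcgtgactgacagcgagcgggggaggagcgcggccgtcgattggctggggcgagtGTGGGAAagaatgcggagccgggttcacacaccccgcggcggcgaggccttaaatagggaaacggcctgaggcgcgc
NRARP: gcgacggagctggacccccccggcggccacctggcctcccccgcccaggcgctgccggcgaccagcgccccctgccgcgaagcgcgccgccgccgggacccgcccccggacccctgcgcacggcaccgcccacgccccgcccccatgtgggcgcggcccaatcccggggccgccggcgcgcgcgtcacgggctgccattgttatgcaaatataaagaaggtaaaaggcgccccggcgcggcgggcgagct
HES5: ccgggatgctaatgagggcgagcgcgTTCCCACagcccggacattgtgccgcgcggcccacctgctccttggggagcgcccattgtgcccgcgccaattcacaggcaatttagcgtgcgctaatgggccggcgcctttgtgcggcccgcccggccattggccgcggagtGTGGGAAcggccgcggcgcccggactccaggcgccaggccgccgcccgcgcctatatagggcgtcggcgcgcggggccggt
HEYL: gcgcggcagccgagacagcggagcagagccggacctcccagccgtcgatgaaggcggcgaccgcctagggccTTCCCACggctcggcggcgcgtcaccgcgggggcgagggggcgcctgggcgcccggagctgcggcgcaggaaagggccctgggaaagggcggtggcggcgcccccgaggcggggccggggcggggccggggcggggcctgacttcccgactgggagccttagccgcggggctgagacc
The match starts 85 bases before the RefSeq start in HES1 and 77 bases before it in HES4, on the strand of the gene in each. HES5 has matches starting 224 and 81 bases before its start, and HEYL has 1 at 178. A match describes the letters only.

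The DHS peaks called at the HES1 start lay in different places in the full lists of the lines. In PC9R no DHS peak covered the HES1 start or the RBPJ motif match upstream of it, and the nearest peak, at chr3:193854778-193855002, lay 841 bases downstream inside the gene. Its score ranked in the top 80.4% of the PC9R list (scores are the authors' own and are compared within a list only). In PC9 a DHS peak at chr3:193853730-193854011, in the top 14.4% of its list, covered both the start and that match. Each of these peaks holds 1 GTGGGAA match, since the PC9R peak has another inside the gene. The HEY1 start peak of each line and a NOTCH3 peak of PC9 hold a match as well. Within the central 200 bases, 2 of 21 DHS peaks near Notch genes in PC9R and 3 of 17 in PC9 held it. Over all DHS peaks the shares were 4.69% in PC9R and 5.04% in PC9. Within 50 kb of the start HES1 had 2 DHS peaks in PC9R and 4 in PC9. Among the 19648 highest-scored PC9R peaks, as many as PC9 had in all, HES1 had 0 there. A peak that was not called does not show closed chromatin. The peak farthest upstream was shared between the lines. It lay 46138 bases from the start in PC9R (chr3:193807611-193807799, top 80%) and 46176 bases from it in PC9 (chr3:193807159-193807761, top 7.57%). With 1 library per line, none of these differences has a replicate check, and the RNA libraries of the lines overlapped for HES1.

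JAG1 and HEY1 were the loci with more DHS peaks in PC9R in the full lists, but not in lists of equal length. Among the 19648 highest-scored PC9R peaks, as many as PC9 had in all, JAG1 had 1 peak within 50 kb in PC9R against 3 in PC9, and HEY1 had 2 in each line. In the full lists JAG1 had 9 DHS peaks within 50 kb in PC9R and 3 in PC9. A peak at the JAG1 start was found in both lines, at chr20:10654622-10654866 in PC9R (top 9.18%) and at chr20:10654746-10654926 in PC9 (top 10.8%), as was a peak about 32 kb upstream (chr20:10686527-10686700 in PC9R and chr20:10686464-10686819 in PC9). Of the 6 PC9R peaks inside the JAG1 gene or over its start, 5 did not overlap a PC9 peak, and they included 4 that lay 15.6 to 34.4 kb downstream of the start. HEY1 on chromosome 8 had in the full lists 6 DHS peaks in PC9R and 2 in PC9. Both PC9 peaks overlapped peaks of PC9R: the peak at the start (top 37.4% in PC9R and top 73.4% in PC9) and a peak about 16 kb upstream, which ranked in the top 2.04% of PC9R and the top 16.2% of PC9.

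**Figure D3:**
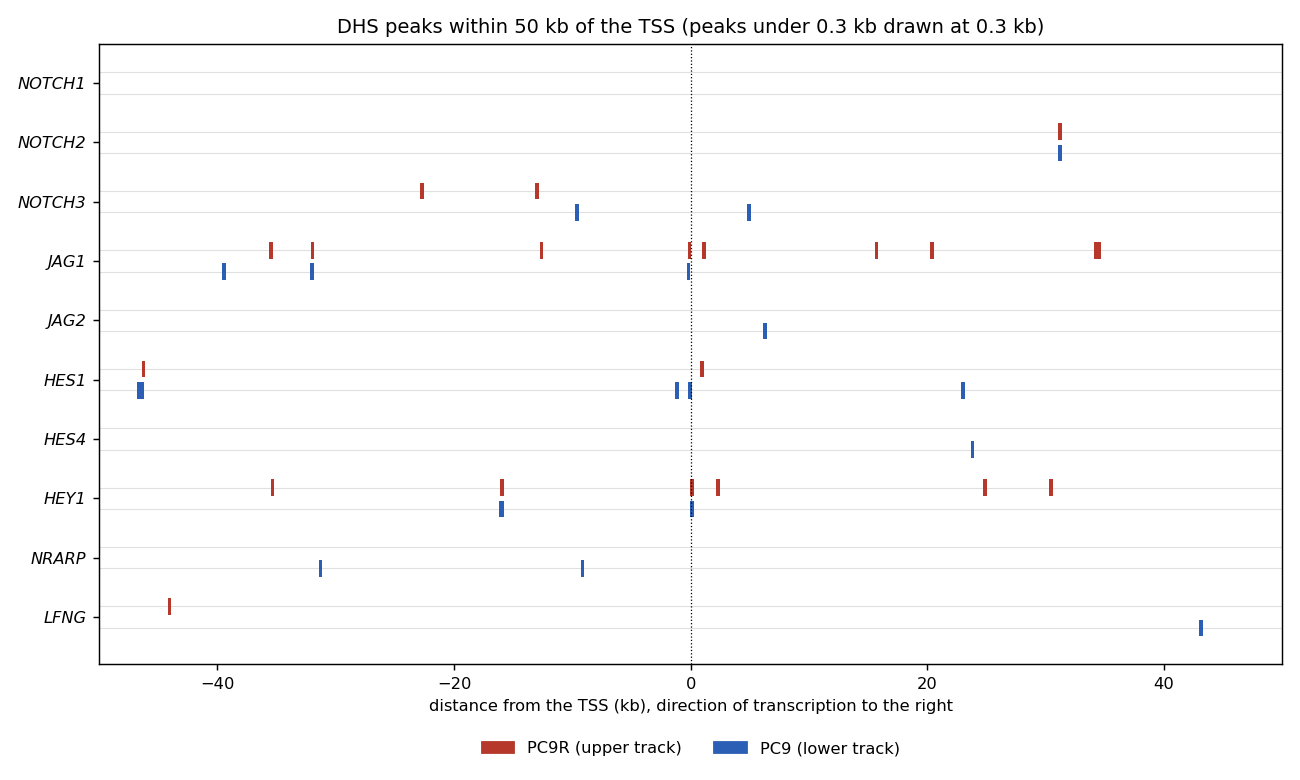
DHS peaks of PC9R (red, upper track) and PC9 (blue, lower track) around the 10 Notch genes, by distance from the annotated start in kb (horizontal axis), with transcription to the right. JAG1 has 9 and HEY1 6 peaks in PC9R against 3 and 2 in PC9 in the full lists (1 and 2 against 3 and 2 in lists of equal length), and only PC9 has a peak over the HES1 start.

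The other Notch loci held 0 to 2 DHS peaks within 50 kb in each line, where the median coding gene had 2 in PC9R and 1 in PC9. Of the 10 Notch genes, 6 had such a peak in PC9R and 9 in PC9, against 81.3% and 62.8% of coding genes. NOTCH1 had 0 in both. NOTCH2 had 1 in each line, at chr1:120612022-120612295 in PC9R and chr1:120612032-120612285 in PC9, over the start of its canonical transcript at 120612276 and about 31 kb inside the longest annotated form. NOTCH3 had 2 in each line and LFNG 1 in each, with none shared. JAG2 and HES4 had 0 in PC9R and 1 in PC9, and NRARP had 0 in PC9R and 2 in PC9, among them chr9:140205760-140205956, 9.04 kb upstream and within EXD3 (top 12.3%). The HES4 peak lay within another gene, PERM1. Of the 9 Notch genes with a DHS peak in either line, 2 had more in PC9R, 4 fewer and 3 the same number, while 70.8% of coding genes with such a peak had more in PC9R, whose list of 59600 peaks is longer than the 19648 of PC9. The covered length was shorter in PC9R at 5 of these 9, against 24.1% of the coding genes. In the list of PC9R shortened from 59600 to 19648 peaks, 4 of the 21 peaks near Notch genes were left, and JAG1 was the 1 gene with a peak at its start. Such a cut removes peaks near any gene. The share of coding genes that kept a start peak was not computed, so these counts are not a trait of Notch genes. Transcript GC content moved with this excess. Of the coding genes in the highest of 4 equal GC bins, which holds 6 of the 10 Notch genes, 56.1% had more DHS peaks in PC9R and 29.9% fewer, against 75.4% with more and 11.9% with fewer in the lowest bin. Its part in the values of the Notch genes was not tested. A DHS peak lay within 1 kb of the start of 3 of the 10 Notch genes in each line (JAG1, HES1 and HEY1), against 39.5% of coding genes in PC9R and 29.9% in PC9. They were the same 3 genes in both lines, a state seen in 23.1% of coding genes, and the other 7 had none in either line, as 53.6% of coding genes. No Notch gene had such a peak in PC9R alone or in PC9 alone, against 16.5% and 6.86% of coding genes. Of the 8 Notch genes tested for expression, 2 had this peak, against 50.5% of the 11034 coding genes tested in PC9R, 43.3% in PC9 and 33.2% in both. Of the DHS peaks near Notch genes, 6 of 21 in PC9R (28.6%) and 6 of 17 in PC9 (35.3%) overlapped a peak of the other line, against 14.3% of all DHS peaks in PC9R and 43.2% in PC9. All DHS peaks here include those far from any gene start.

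H3K4me2 marked nearly all Notch promoters in both lines and covered less sequence in PC9R, as it did at most coding genes. A peak lay within 1 kb of the annotated start of 9 of the 10 genes in each line, against 67.4% of coding genes in PC9R and 65% in PC9. The 9 genes were the same in both lines (63.3% of coding genes), 0 were marked in PC9R alone (4.15%) or in PC9 alone (1.67%), and 1 in neither (30.9%). Of the 8 tested for expression 7 were marked in both lines, against 87.4% of the 11034 coding genes tested, of which 89% were marked in PC9R and 89% in PC9. The exception was NOTCH2, whose canonical start carried a peak in both. Within 50 kb of the starts 135 peaks covered 77022 bases in PC9R and 126 peaks covered 130537 bases in PC9. Summed over all coding genes, the covered length was smaller in PC9R too, at 96556408 bases against 135290220 in PC9. The covered length was smaller in PC9R at 8 of the 10 genes, against 71.7% of coding genes with a peak in either line, and H3K4me2 peaks were narrower in PC9R over the whole list (median 395 bases in PC9R and 546 in PC9). More peaks in PC9R were counted at 5 of the 10, against 63.4%. The gap in length was wide at HES1, with 8473 bases in PC9R and 21699 in PC9, and at HES4, with 11152 in PC9R and 23919 in PC9. The HES4 window also holds the starts of 6 other coding genes (NOC2L, KLHL17, PLEKHN1, PERM1, ISG15 and AGRN), so its length is not that of HES4 alone. A PC9 peak of 5985 bases there overlapped AGRN, where PC9R had peaks of 1247 and 690 bases. JAG2 went the other way, with 6795 bases in PC9R and 6238 in PC9, as did NOTCH2, with 746 in PC9R and 217 in PC9.

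Single promoters show the difference in shape. At JAG1 PC9R had 3 separate peaks of 202 to 1737 bases within 1 kb of the start, where a single PC9 peak of 4920 bases spanned it (chr20:10651496-10656415, top 6.87% of its list). At HES4 PC9R had 3 peaks of 323 to 716 bases, none over the RBPJ motif, and PC9 had 1 of 3772 bases that held it (chr1:933922-937693, top 5.21%). At NRARP the peak downstream of the start was found in both lines (chr9:140195968-140196361 in PC9R, top 8.74%, and chr9:140194970-140196393 in PC9, top 6.72%), and the peak upstream of it, chr9:140196962-140197989, in PC9 only. At NOTCH1 the upstream peak was at chr9:139440896-139442142 in PC9R (top 15.4%) and chr9:139440623-139442565 in PC9 (top 3.21%). At NOTCH3 PC9R had 2 short peaks, 193 bases downstream (top 16.96%) and 148 bases upstream of the start (top 75.8%), and PC9 had 1 peak of 2441 bases over the start (chr19:15309851-15312291, top 12.5%).

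The promoters of the sparsely counted genes carried the mark as well. HEY1, with 7 counts over all libraries, had a H3K4me2 peak over its start in the top 5.48% of the PC9R list and in the top 0.536% of the PC9 list. LFNG had peaks near its start of middle rank, with the best in the top 42.3% in PC9R and 41.2% in PC9. Of the H3K4me2 peaks near Notch genes, 106 of 135 in PC9R (78.5%) and 89 of 126 in PC9 (70.6%) overlapped a peak of the other line, against 59.1% of all H3K4me2 peaks in PC9R and 70.2% in PC9. DHS peaks near Notch genes lay in H3K4me2 of their own line in 12 of 21 cases in PC9R (57.1%) and 14 of 17 in PC9 (82.4%), against 25.8% of all DHS peaks in PC9R and 52.2% in PC9. The shares over all peaks include peaks far from any gene start. They do not show whether peaks near other genes differ from those near Notch genes.

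**Figure D4:**
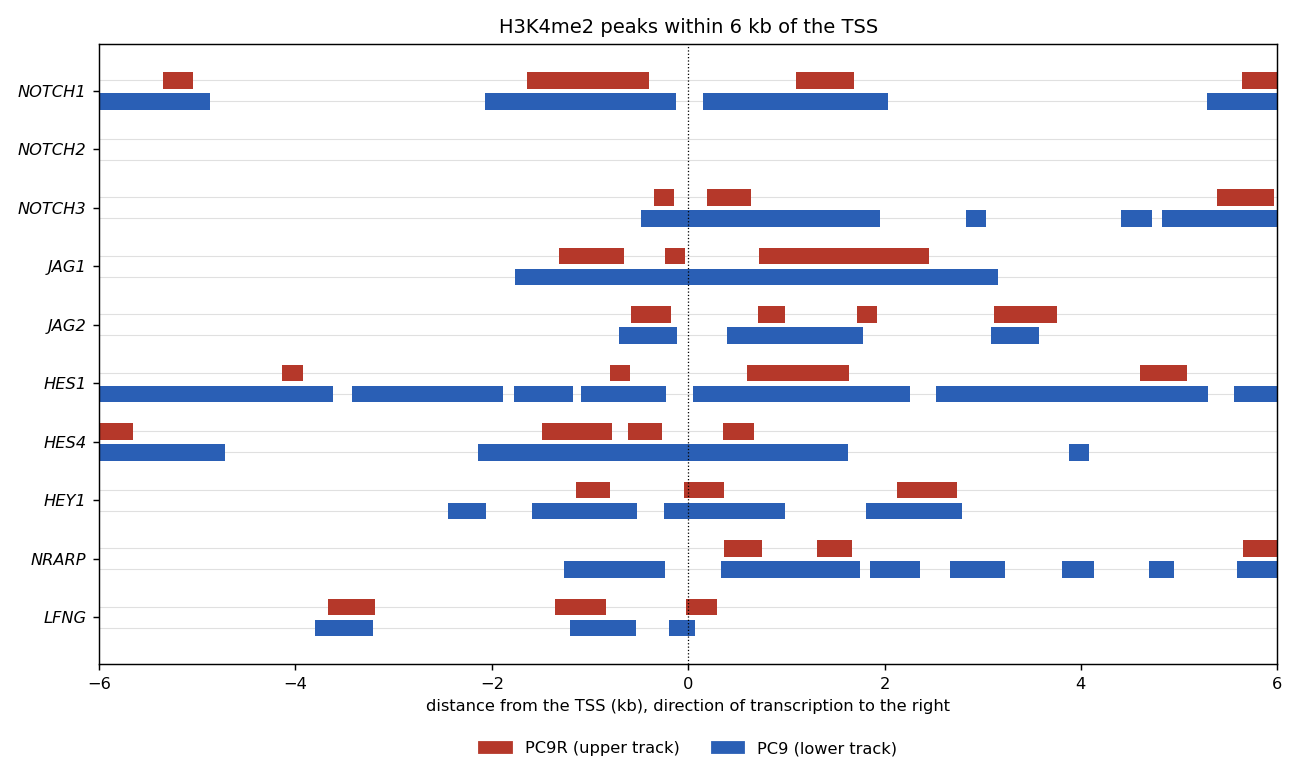
H3K4me2 peaks near the starts of the 10 Notch genes in PC9R (red, upper track) and PC9 (blue, lower track) by distance from the annotated start in kb (horizontal axis), with transcription to the right. Peaks of PC9 are longer at most genes, as at JAG1 with 3 peaks in PC9R and 1 peak of 4920 bases in PC9, and NOTCH2 shows none because its canonical start lies outside the range drawn.

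The wider pathway was followed in 5 lists with 57 further genes, of which 56 were matched to the count tables and 43 tested. Without a batch term 0 of the 43 passed (5 had an unadjusted p under 0.05), DESeq2 called 2 (DNER and HEYL, both higher) and limma-voom 0. With a batch term 14 passed, 8 higher and 6 lower in PC9R, beside the 20.8% of all genes called in that fit. The median log2 fold change of the 43 was 0.05 there, against -0.01 over all genes. Apart from DNER and HEYL, the calls named from here on were made with the batch term and not by these other fits.

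Among other receptors and ligands, 1 of 4 tested rose with a batch term (median log2 fold change 0.61), where 11.2% of all genes did. DNER encodes a transmembrane protein with EGF-like repeats described as a ligand for Notch on glia. It had 18.8 and 55.2 CPM in PC9R against 2.20 and 4.61 CPM in PC9. Each PC9R library was several-fold above each of PC9. DNER rose 10.1-fold with a batch term (log2 fold change 3.34, SE 0.27, edgeR's adjusted p = 0.000211), was at 3.45 without it (edgeR adjusted p = 0.165), and passed in DESeq2 (adjusted p = 0.000353). Without the second PC9R library, and with no batch term, it was at 2.46, and without the second PC9 library at 4.06. Its start had 2 DHS peaks within 1 kb in PC9R and 0 in PC9, and 16.5% of coding genes had such a peak in PC9R alone. ADAM10, which was not called, also had 2 in PC9R and 0 in PC9. HEYL and HES2, called higher with a batch term, had 0 in both lines. NOTCH4, the endothelial receptor gene, was at 0.797 and 0.654 CPM in PC9R and 0.941 and 0.667 CPM in PC9.

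The other HES and HEY genes split, with 2 of 5 tested higher and 2 lower with a batch term (median log2 fold change -0.76), where 11.2% of all genes were called higher and 9.57% lower. HEYL had 15.6 and 5.89 CPM in PC9R against 1.44 and 0.934 CPM in PC9, and HES2 had 29.96 and 6.60 CPM in PC9R against 5.74 and 2.14 CPM in PC9. Both genes were higher in each PC9R library than in any of PC9. HEYL rose 8.74-fold with a batch term (log2 fold change 3.13, SE 0.34, edgeR's adjusted p = 0.000777; without it 3.16, edgeR adjusted p = 0.181), and HES2 rose 4.21-fold (2.07, SE 0.29, edgeR's adjusted p = 0.00281; without it 2.21, edgeR adjusted p = 0.602). HES5, a classical Notch target of neural progenitors, had 13 and 2 counts in the PC9R libraries against 85 and 10 in those of PC9. HES7, the segmentation clock gene, had 15 and 1 counts in PC9R against 42 and 9 in PC9. HES5 fell with a batch term (log2 fold change -2.75, edgeR adjusted p = 0.00761), as did HES7 (-1.93, edgeR adjusted p = 0.0459). Both were at under 3 CPM in every library. Sizes depended on single libraries in the fit without a batch term. HES2 was at 0.74 without the first PC9R library and at 3.09 without the first PC9 library, and HEYL at 2.29 without the first and 3.68 without the second PC9R library. HES5 was at -3.77 without the first PC9R library and at -1.36 without the first PC9 library, and HES7 at -3.91 without the first and -1.20 without the second PC9R library. The HES5 start had 0 H3K4me2 peaks within 1 kb in PC9R and 1 in PC9, which covered both RBPJ motif matches. HEYL had 2 H3K4me2 peaks at its start in PC9R and 1 in PC9, of which the PC9 peak covered its motif. HES7, although lower in PC9R, had 2 such peaks in PC9R and 1 in PC9. HES2, although higher in PC9R, had 1 in each line. Peaks of HES2, DHS included, were counted around its annotated start at chr1:6484730. The motif was sought at another start, the RefSeq start at chr1:6479979. A link between these peaks and the RNA levels was not tested.

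**Figure D5:**
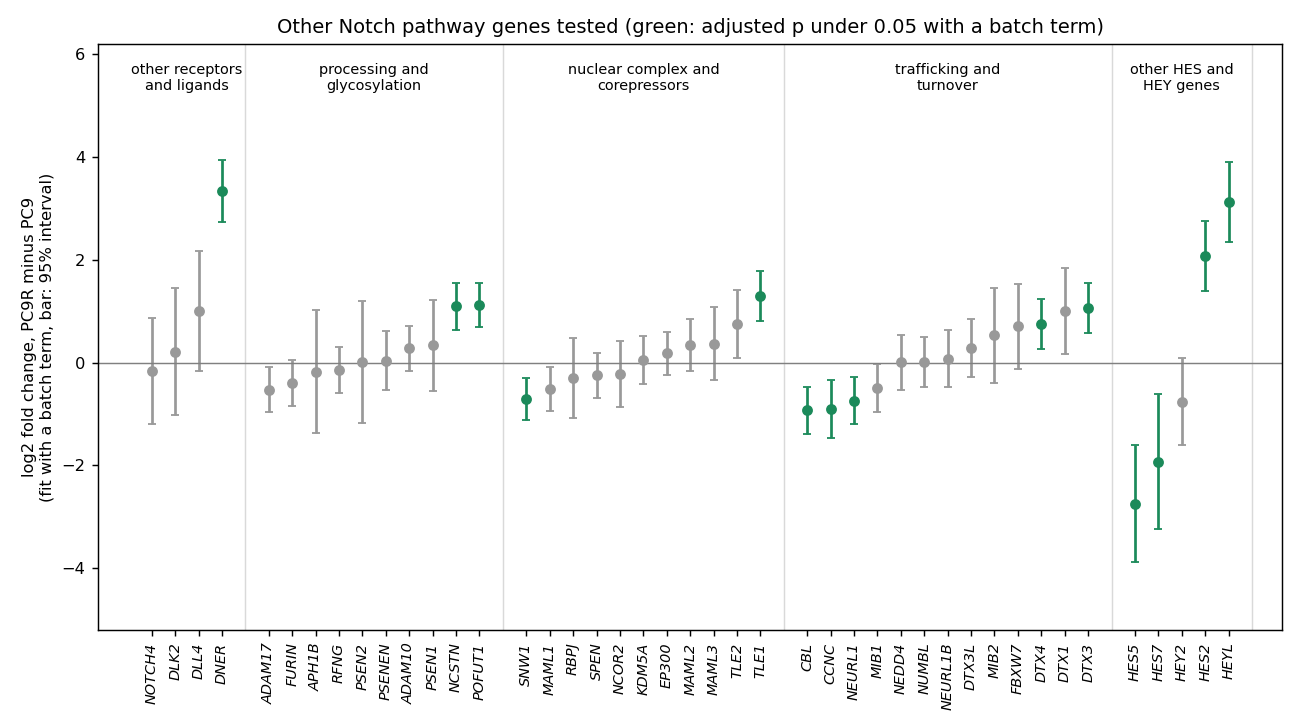
Log2 fold change of PC9R minus PC9 (vertical axis) with 95% intervals for the 43 further Notch pathway genes tested, from the fit with a batch term, grouped by role and sorted within each group. The 14 genes with an adjusted p under 0.05 in that fit are green, with DNER and HEYL at the top and HES5 at the bottom.

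In the machinery that processes receptors, 2 of 10 tested genes rose and 0 fell with a batch term (median log2 fold change 0.024), a share close to the 20.8% of all genes called. NCSTN, which encodes the nicastrin subunit of gamma-secretase, had 269 and 179 CPM in PC9R against 109.8 and 96.0 CPM in PC9 and rose 2.14-fold (log2 fold change 1.10, SE 0.20, edgeR's adjusted p = 0.00784; without a batch term adjusted p = 0.772). POFUT1, which adds the fucose on which fringe enzymes act, had 288 and 330.2 CPM in PC9R against 136 and 148 CPM in PC9 and rose 2.17-fold (1.12, SE 0.18, edgeR's adjusted p = 0.00502; without it 0.706). For both genes the libraries of the lines did not overlap. The sheddase gene ADAM10 (log2 fold change 0.28 with a batch term) and FURIN (-0.40), whose product cuts the receptor on its way to the surface, did not pass.

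In the nuclear complex 1 gene rose and 1 fell of 11 tested with a batch term (median log2 fold change 0.05), again a share near the 20.8% of all genes called. TLE1, a Groucho family corepressor that HES proteins recruit, had 116 and 121 CPM in PC9R against 54.2 and 43.1 CPM in PC9 and rose 2.45-fold with a batch term (log2 fold change 1.29, SE 0.21, edgeR's adjusted p = 0.0049; without it 0.652). SNW1, a cofactor of RBPJ and of splicing, had 231 and 429 CPM in PC9R and 402 and 662 CPM in PC9. It fell with a batch term (-0.71, SE 0.18, edgeR's adjusted p = 0.0264; without it 0.999), and its libraries overlapped between lines. EP300, the acetyltransferase gene, was at 0.18 and did not pass. RBPJ itself, spread over 4 accessions, had 36 to 50 counts in each library and was at -0.31 (edgeR adjusted p = 0.559 with a batch term).

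Of the genes of trafficking and turnover, 2 rose and 3 fell of 13 tested with a batch term (median log2 fold change 0.07), beside 11.2% higher and 9.57% lower of all genes. The Deltex genes DTX3 and DTX4, relatives of an E3 ligase that acts on Notch, rose 2.09-fold and 1.69-fold (edgeR adjusted p = 0.0115 and 0.0393). DTX3 had 63.7 and 33.4 CPM in PC9R against 29.9 and 16.2 CPM in PC9, and DTX4, whose libraries overlapped, 288 and 135 CPM in PC9R and 139 and 98.1 CPM in PC9. The E3 ligase genes CBL and NEURL1 and the cyclin gene CCNC, whose kinase partner marks the Notch intracellular domain for degradation, fell, at log2 fold changes of -0.93, -0.75 and -0.90 (edgeR adjusted p = 0.0151, 0.0323 and 0.0346). NEURL1 was at -0.11 without the first PC9 library and at -1.35 without the first PC9R library, with no batch term. CBL had 50.2 and 76.5 CPM in PC9R against 86.9 and 159.8 CPM in PC9. MIB1, the ligase that primes ligands for endocytosis, was at -0.49 and did not pass. APH1A and NUMB, with 7 and 4 accessions, had 0 counts in every library, and, as for the other genes with several accessions, this cannot be read as absence of expression.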

How the data were processed

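RNA-seq, DHS and H3K4me2 ChIP-seq were measured in PC9R and PC9. The deposited RNA files hold counts per RefSeq accession, and the deposited peak files give each peak a score of unstated scale. The submitters' processing notes name DESeq, HTSeq, TopHat, MACS2 and hg19 without version or role, and the sources used here do not give strandedness or peak threshold. The 42811 accessions (41556 matched to RefSeq names) were summed per gene. The Notch genes and lists were chosen with earlier results of these data known. Nothing states that both libraries of a line come from different cultures; the p-values may measure technical spread only.

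Tests used edgeR 4.0.16 in R 4.3.3 (TMM, filterByExpr, two-sided quasi-likelihood F test, Benjamini-Hochberg over 12660 genes). SE is the fold change over the root of F. CPM are TMM-normalized; within-batch differences use log2 CPM with a prior count of 0.5. Library number was added as a batch term because second-minus-first differences correlated between lines over genes (r = 0.819), and the labels do not pair the libraries. Starts are gene 5′ ends in GENCODE 44 on GRCh37, and overlaps need 1 base. Each peak list belongs to 1 library, so lines were compared without a test. Intervals of count ratios are exact binomial and cover counting error only. Named pathway genes were those passing either fit plus the 2 most abundant tested genes of each list, and EGFR; RBPJ, APH1A and NUMB were added after their values were seen. DESeq2 1.42.0, limma 3.58.1 and the other alternatives follow below. Simulated counts had 1 dispersion for all genes. Only the run for the batch-term fit held a shift between first and second libraries, the same in both lines. Recovery in the real data may therefore differ. On simulated counts the fit without a batch term recovered 0 of 47 tested 2-fold changes, 9 of 49 4-fold and 42 of 47 16-fold changes. The batch-term fit recovered 23 of 46 2-fold and 43 of 44 4-fold changes. A gene that was not called may therefore still differ by 2-fold, above all without a batch term.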

Additional observations from a re-analysis of the deposited data

How the results depend on the processing

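No Notch gene was called under any of the 12 alternative fits run, the replicate block among them; the lowest adjusted p of the tested genes other than in the replicate block was 0.331 (LFNG without the second PC9R library). The sign of NOTCH2, JAG2 and NRARP held in all 12. Leaving out 1 library gave log2 fold changes of -1.13 to 1.07 for NOTCH1, -0.81 to 1.28 for NOTCH3, -0.14 to 0.99 for JAG1, -0.46 to 0.60 for HES1 and -0.63 to 0.27 for HES4. A lone library then borrows its spread from the other line. It also gave -0.39 to 0.12 for NOTCH4, -0.18 to 0.77 for ADAM10, -1.25 to 0.33 for FURIN, -0.01 to 0.36 for EP300 and -1.08 to 0.15 for MIB1. Among genes called with the replicate block it gave 0.19 to 1.27 for DTX4, 0.53 to 1.57 for DTX3, -1.22 to -0.30 for SNW1 and -1.34 to -0.48 for CBL, with no sign change in any of the 14 where tested.

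Against 32 genes called over the whole table, 0 passed in edgeR with upper quartile scaling, where 919 had an unadjusted p under 0.05. The count was 440 with no filter, 110 with the stricter filter, 2631 with the replicate block, 381 with DESeq2, 73 with limma-voom and 83 to 254 without 1 library. RLE scaling (41) and single accessions (31) stayed within 1.5 times. Of the other pathway genes 14 passed with the replicate block, 2 with no filter, 2 with DESeq2 and 0 to 1 without 1 library, against 0. The replicate block uses library number, which the labels do not tie to a shared culture or day. The cause of these shifts was not tested.

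With DHS lists of equal length, 1 Notch gene in PC9R kept a peak at its start instead of 3, and 4 DHS peaks within 50 kb were left instead of 21. This cut left 19648 of the 59600 PC9R peaks, and the matching share over all coding genes was not computed. The higher-scored DHS peaks of PC9R numbered 10. Windows of 25 and 100 kb gave 12 and 43 DHS peaks in PC9R and 11 and 26 in PC9, and 82 and 273 H3K4me2 peaks in PC9R and 79 and 218 in PC9. The higher-scored H3K4me2 peaks numbered 84 in PC9R and 83 in PC9. The canonical start was chosen after seeing the data, as were the settings for the other pathway genes.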
